A study of Mus musculus with 24 samples.

Results

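The choroid plexus genes were 32 genes known as products of the choroid plexus, the secretory epithelium that lines folds of the brain ventricles next to the hippocampus. They were picked by symbol, with no measured value in the rule but with earlier results of these data known. Each symbol matched 1 gene of the 51826 in the count table. Of the 32 genes, 18 are defining products of this epithelium in the brain, such as Ttr, Kl, Folr1, Kcnj13 and Otx2, and the other 14, such as Enpp2, Igf2 and Slc29a4, are better known from other brain cells too. The division is not strict, since Kl is also made by some neurons and Slc13a4 by meningeal cells. All 32 had enough counts to be tested in every model, so no member was lost to a filter on low counts.

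RNA was taken from the dorsal hippocampus of male mice of 2 to 4 months on the C57BL/6j background, either WT or CBP KIX/KIX. The paper's methods, by contrast, name both sexes for its experimental and control groups, without giving the sex of the mice sequenced. CBP KIX/KIX mice carry germline point mutations in the KIX domain of the transcriptional coactivator CBP in all of their cells, and the mutant mice came from heterozygous matings with WT littermates as controls. In RNA-Seq 1, sequenced from ribosome-depleted total RNA, libraries of 3 WT homecage mice, 3 WT mice trained for days in the Morris water maze (MWM) and 3 CBP KIX/KIX mice trained in the MWM were compared, taking each library as a sample of its group. In RNA-Seq 2, sequenced from polyA-selected RNA, the groups were 3 WT homecage, 4 CBP KIX/KIX homecage, 4 WT and 4 CBP KIX/KIX mice, the latter 2 groups after contextual fear conditioning (CFC) with a single foot shock. Trained mice were sampled 1 h after training, and homecage controls of the CFC experiment were handled without shock. Libraries are named below by group and replicate number, for example WT CFC 1.

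The choroid plexus makes most of the cerebrospinal fluid. Its epithelial cells move ions and water with carriers such as Slc4a5 and the water channel Aqp1. Their tight junctions, between the blood side and the ventricle side, hold claudins such as Cldn2. The cells also secrete carriers and growth factors, above all transthyretin (Ttr), which carries thyroid hormone. Otx2 is the homeodomain factor that maintains the identity of these cells. A choroid plexus lies along the hippocampus in the lateral ventricle, so a hippocampal dissection can take along a varying amount of it.

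Promoter sequences are shown because the genes moved together across libraries and because Otx2 is itself a member. RefSeq windows from 250 bases before to 50 bases after a gene start (build GRCm38.p6) were found for 26 of the 32 genes, in 38 entries. Both strands were searched for the OTX-type homeodomain core TAATCC or GGATTA, for the full cyclic AMP response element TGACGTCA, and for the E-box CACGTG, none of which overlap each other. The OTX core was found for 4 of the 26 genes (15.4%), Otx2, Mfrp, Igf2 and Ace, beside 8.14% of all 27025 genes with a window. A gene was counted when any of its windows held the core, and genes differ in their number of windows. By window it was 4 of 38, beside 7.06% of all 32851 windows. The cyclic AMP element was found for 0 of the 26 genes beside 2.03% of all genes, and the E-box for 1 gene (3.85%), Igfbp2, beside 8.09%. These matches are a description of letters and were not measured as binding sites.

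The stretches around the OTX cores that lie before the gene start are printed in the gene's own direction, with the core in capitals. The core starts 211 bases before one of the starts of Otx2 (minus strand, chr14:48665270-48665359), 134 bases before the start of Mfrp (plus strand, chr9:44101591-44101686) and 27 bases before a start of Ace (plus strand, chr11:105967876-105967947). The 250 bases before the start of Aqp1 (plus strand, chr6:55336049-55336298) are given as well, since Aqp1 was called in a test below, and they hold none of the motifs searched.
Otx2: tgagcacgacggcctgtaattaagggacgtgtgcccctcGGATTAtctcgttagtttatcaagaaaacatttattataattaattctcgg
Mfrp: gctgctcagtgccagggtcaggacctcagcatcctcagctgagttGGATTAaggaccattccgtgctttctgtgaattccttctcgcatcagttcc
Ace: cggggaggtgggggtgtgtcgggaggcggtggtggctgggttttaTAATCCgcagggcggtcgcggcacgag
Aqp1: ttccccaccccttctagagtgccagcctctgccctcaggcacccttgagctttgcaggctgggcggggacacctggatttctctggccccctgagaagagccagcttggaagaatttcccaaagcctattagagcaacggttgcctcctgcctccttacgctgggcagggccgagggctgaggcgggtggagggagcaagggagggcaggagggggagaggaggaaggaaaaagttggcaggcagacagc

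Total counts, rounded to 6 digits, ran from 38174000 to 65709300 per library in RNA-Seq 1 and from 15385800 to 46056300 in RNA-Seq 2, where all 7 libraries numbered 3 or 4 had 20568300 or fewer. The KIX mutations are point mutations, so the level of Crebbp, the gene of CBP, does not check the genotype labels. It was 152 ± 13.1 CPM (SD, n = 3), where CPM is the count of a gene relative to the scaled total count of its library in CBP KIX/KIX MWM against 164 ± 24.6 in WT MWM (n = 3), a log2 difference of -0.10 (SE 0.14). Markers of hippocampal principal neurons were present in every library, with a summed level of 1014 to 1851 CPM over 10 genes. The 2 experiments differ in kit, centre and training, so levels were scaled within each experiment by the upper quartile and are compared within it.

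Ttr varied far more between libraries of the same group than between groups. In RNA-Seq 1 it stood at 72.2, 81.5 and 1310.5 CPM in WT homecage 1 to 3, at 102, 419 and 1302 CPM in WT MWM 1 to 3, and at 929.8, 2179 and 128 CPM in CBP KIX/KIX MWM 1 to 3. Each of these 3 groups held a library of 128 CPM or less and another of 1302 CPM or more, and all groups overlapped.

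In RNA-Seq 2 the spread of Ttr was wider still. WT homecage 1 to 3 had 5.16, 1722 and 3.62 CPM, and CBP KIX/KIX homecage 1 to 4 had 202, 101.3, 2657 and 727 CPM. WT CFC 1 to 4 had 12.4, 4291, 1739 and 1857 CPM, and CBP KIX/KIX CFC 1 to 4 had 21.1, 48.7, 3992 and 2172 CPM. The highest library was 1184-fold above the lowest, 475-fold separated the libraries of WT homecage alone, and no group stood apart from another. Of the 7 shallower libraries numbered 3 or 4, 6 had Ttr at 727 CPM or more and WT homecage 3 had the lowest value of all, while the 8 deeper libraries ran from 5.16 to 4291 CPM. Across the 15 libraries no relation between total count and Ttr was detectable (Pearson's r = -0.26 and permutation p = 0.334, Spearman's rho = -0.10 and p = 0.734, two-sided, adjusted p = 0.667 over 2 experiments, r = -0.49 without the 2 libraries farthest from the Ttr median). In bulk tissue, a larger number of choroid plexus cells and more RNA per cell cannot be told apart.

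**Figure D1:**
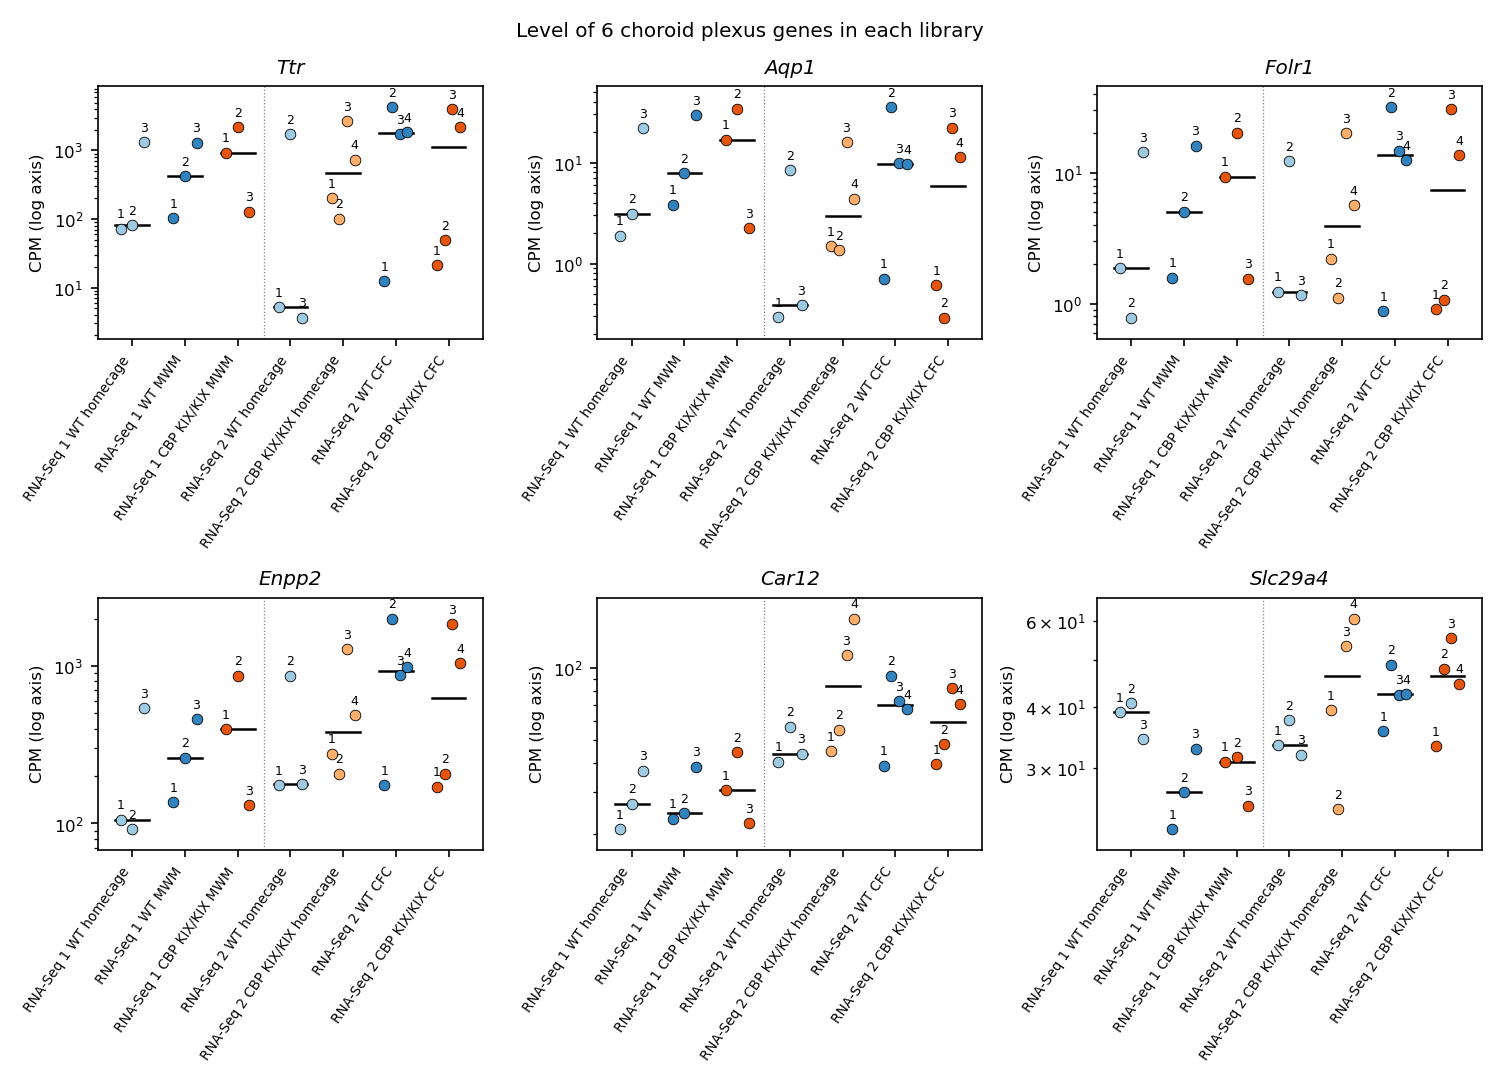
CPM (log axis) of 6 choroid plexus genes in each of 24 libraries by group; each point is 1 library with its replicate number, bars are group medians and the dotted line parts RNA-Seq 1 from RNA-Seq 2. Ttr spans 3.62 to 4291 CPM in RNA-Seq 2 with high and low libraries in every group, whereas Slc29a4 lies between 22.5 and 60.7 CPM in all libraries.

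The same libraries were high or low for nearly all of the 32 genes. CBP KIX/KIX MWM 2 held the highest level of 30 of the 32 genes in RNA-Seq 1, and WT CFC 2 that of 22 of the 32 genes in RNA-Seq 2. In RNA-Seq 1, where each gene had over 3 counts in every library, the highest library exceeded the lowest by 8.28-fold at the median of the 32 genes (range 1.81-fold for Slc29a4 to 54.1-fold for Kcne2). In RNA-Seq 2 the median was 12.8-fold over the 26 genes with more than 3 counts in every library. Over all 18036 genes tested in every model the median of that ratio was 1.54-fold in RNA-Seq 1 and 1.47-fold in RNA-Seq 2, leaving out genes with a 0. Group membership took little of the members' spread. A median of 8.20% of a member's squared deviations on the log2 scale lay between groups in RNA-Seq 1 and 13.2% in RNA-Seq 2, beside 34.6% and 21.2% for all genes tested. Some share lies between groups even with no group difference, and that share was not computed. As the members moved together, these medians are not 32 separate results.

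**Figure D2:**
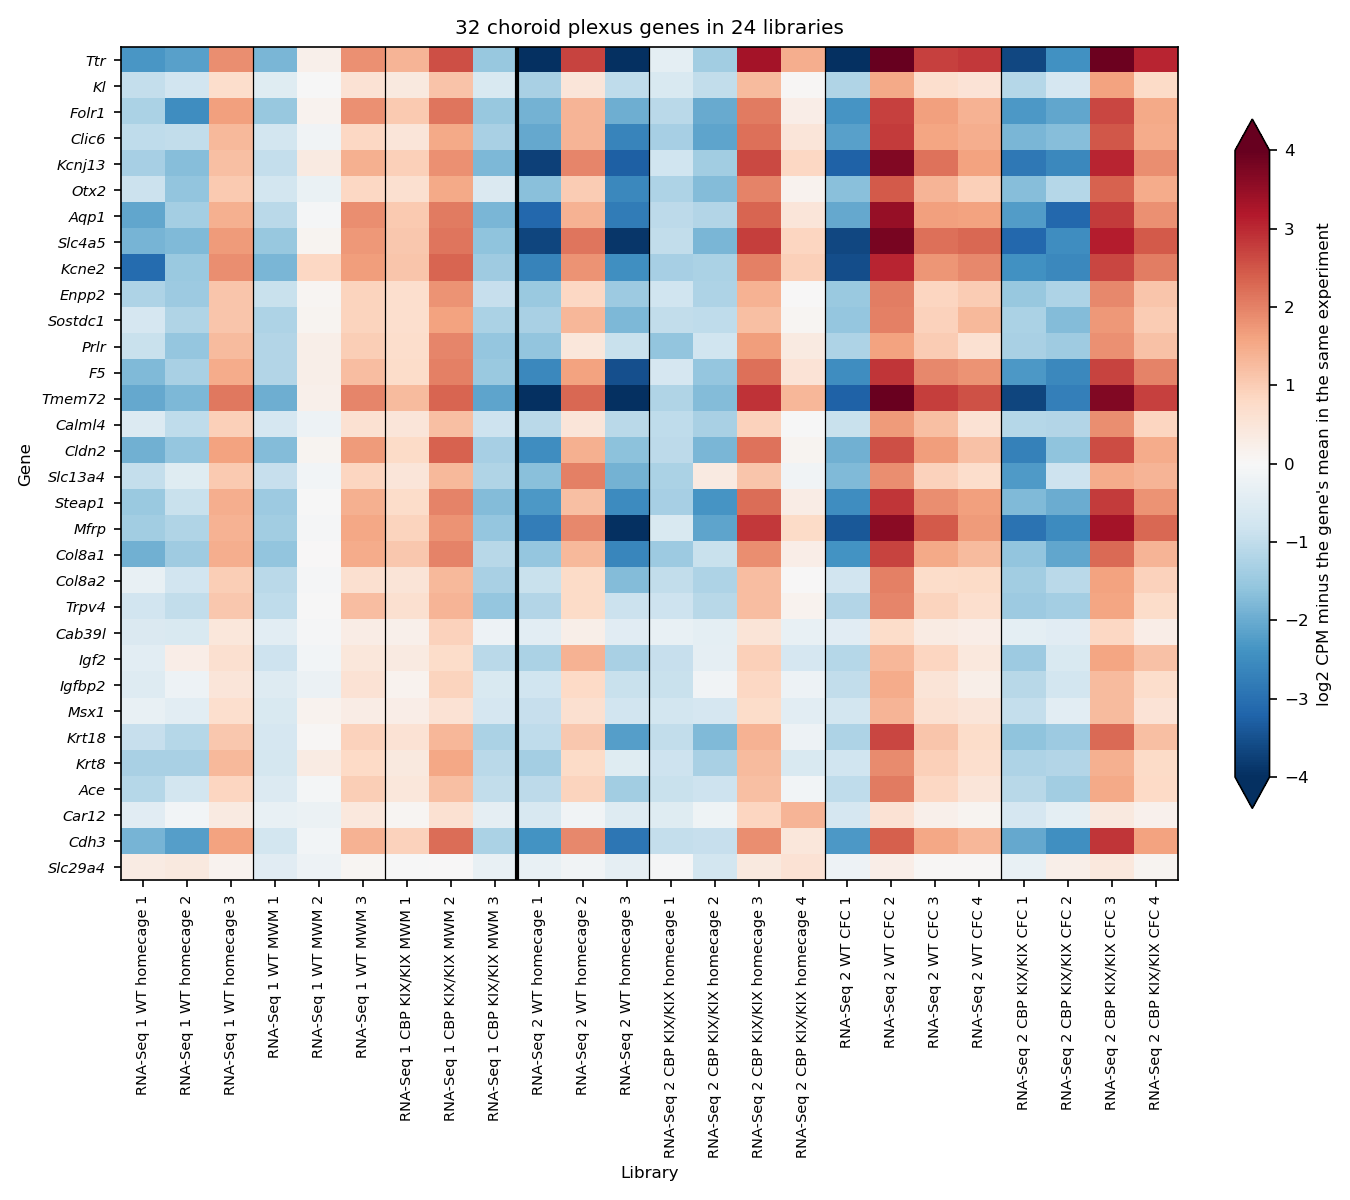
Level of the 32 choroid plexus genes (rows) in 24 libraries (columns, by group), as log2 CPM minus the mean of the gene in the same experiment; red is above and blue below that mean, and the thick line parts the experiments. Whole columns turn red or blue within a group, with CBP KIX/KIX MWM 2 and WT CFC 2 the highest columns for most genes and Slc29a4 near its mean in all.

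Among the 7 secreted proteins and carriers, Enpp2 (autotaxin, which makes lysophosphatidic acid) had the highest level after Ttr. Its libraries ran from 91.9 to 865 CPM in RNA-Seq 1 and from 171 to 1999 CPM in RNA-Seq 2. Kl (klotho, the co-receptor of FGF23) ran from 31.2 to 132 CPM and from 20.1 to 151 CPM. F5 (coagulation factor V) reached 93.0-fold between libraries in RNA-Seq 2, from 0.518 CPM in WT homecage 3 to 48.1 CPM in WT CFC 2. Sostdc1 (a secreted BMP and WNT antagonist) ran from 2.01 to 29.3 CPM there. Igfbp2 and Igf2 (an IGF-binding protein and the growth factor itself) moved less, by 2.84-fold and 3.53-fold in RNA-Seq 1 and by 6.14-fold and 8.27-fold in RNA-Seq 2.

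The 9 channels and transporters included the genes with the sharpest contrasts. Kcnj13 (the inward rectifier Kir7.1 of the apical membrane) had 3 counts or fewer in 3 libraries of RNA-Seq 2 and 16.6 CPM in WT CFC 2. Slc4a5 (a sodium bicarbonate cotransporter) had 0.129 CPM, 2 counts, in WT homecage 3 and 40.9 CPM in WT CFC 2. Kcne2 (a potassium channel subunit) spanned 131-fold in RNA-Seq 2 and Aqp1 121-fold. Clic6 (a chloride intracellular channel protein) spanned 45.1-fold, Folr1 (folate receptor alpha, which takes folate into the cerebrospinal fluid) 36.4-fold and Trpv4 (an osmosensitive cation channel) 11.0-fold. Slc29a4 (the monoamine transporter PMAT, which neurons also make) spanned only 1.81-fold in RNA-Seq 1 and 2.45-fold in RNA-Seq 2.

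Slc13a4 (a sulfate transporter that meningeal cells also make) and Igf2 did not follow Ttr in WT homecage 2. Slc13a4 had its highest level there, 36.2 CPM, against 32.1 CPM in WT CFC 2 where Ttr was highest, and Igf2 had 130 CPM against 125 CPM. The summed level of 10 markers of meninges and fibroblasts was also highest in WT homecage 2, at 279 CPM, over a range of 79.8 to 279 CPM in RNA-Seq 2, and none of the 10 was at 3 counts or fewer in every library. Its part in these 2 genes was not tested.

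Of the 8 membrane receptors and enzymes, Tmem72 (a transmembrane protein) and Mfrp (a frizzled-related membrane protein) had 0 and 1 count in WT homecage 3 and 44.5 and 38.8 CPM in WT CFC 2. Prlr (the prolactin receptor), Ace (angiotensin-converting enzyme), Calml4 (a calmodulin-like protein) and Steap1 (a metalloreductase) had their highest RNA-Seq 1 level in CBP KIX/KIX MWM 2 as Ttr did, at 20.5, 70.7, 4.31 and 2.83 CPM. Cab39l, a cofactor of the kinase LKB1, stood at 28.3 CPM or more in every library of RNA-Seq 2 and reached 69.8 CPM. Car12, a membrane carbonic anhydrase, was the exception of this group: its highest levels in RNA-Seq 2 were 162 CPM in CBP KIX/KIX homecage 4 and 114 CPM in CBP KIX/KIX homecage 3, while CBP KIX/KIX homecage 4 held only 727 CPM of Ttr.

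The 6 genes of junctions, keratins and matrix tracked Ttr on the log2 CPM scale. Pearson's r was 0.91 to 0.997 in RNA-Seq 1 and 0.84 to 0.97 in RNA-Seq 2. In RNA-Seq 2, Cldn2 and Cdh3 were highest in CBP KIX/KIX CFC 3 and not in WT CFC 2, where Ttr was highest. Cldn2 (the cation-selective claudin of leaky epithelia) ran from 0.426 to 19.5 CPM in RNA-Seq 2, Krt8 and Krt18 (keratins of simple epithelia) reached 4.97 and 9.59 CPM in WT CFC 2, and Cdh3 (P-cadherin) had 3 counts or fewer in 5 libraries. Col8a1 and Col8a2 (chains of collagen VIII, which endothelial cells also make) spanned 44.7-fold and 13.9-fold. Of the 2 transcription factors, Otx2 ran from 0.805 to 7.14 CPM in RNA-Seq 1 and from 0.518 to 19.1 CPM in RNA-Seq 2, and Msx1 (a homeodomain repressor) from 4.22 to 10.8 CPM and from 4.16 to 20.5 CPM.

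Per kilobase of merged exons, Ttr led the members in both experiments, with a median over libraries of 354 CPM per kb in RNA-Seq 1 and 613 in RNA-Seq 2. Enpp2 followed with 45.3 and 84.1 CPM per kb. Slc29a4 had 11.0 and 14.8 CPM per kb, and Cdh3 had the lowest medians of the 32, 0.211 and 0.143. The ranges over libraries of neighbours in this order overlapped, since the lowest library of Ttr in RNA-Seq 2 had 3.05 CPM per kb, below the lowest of Enpp2 at 29.5.

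Members were then compared with Ttr across libraries on the log2 CPM scale. In RNA-Seq 1 (n = 9) the 31 other members had a median Pearson's r with Ttr of 0.97, and 29 of them were above 0.9, beside 0.981% of all 18036 genes. In RNA-Seq 2 (n = 15) the median was 0.93, and 21 were above 0.9, beside 0.405% of all genes. On deviations from group means, which remove any difference between groups, the medians were 0.98 and 0.96, and 30 and 28 members were above 0.9. The libraries spread over the whole range of Ttr rather than forming only a high and a low cluster, with WT MWM 2 at 419 CPM and CBP KIX/KIX homecage 4 at 727 CPM in between.

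By the lower of the 2 Pearson correlations with Ttr, Tmem72 was closest, with 0.988 in RNA-Seq 1 and 0.990 in RNA-Seq 2, and Slc4a5 came next. In RNA-Seq 2 the order of Slc4a5 over the 15 libraries was that of Ttr (Spearman's rho = 1.0, permutation p = 1e-05 and adjusted p = 3.1e-05, the smallest p that 100000 permutations can give, Pearson's r = 0.99, p = 1e-05), and without the 2 libraries farthest from the Ttr median r was 0.99. In RNA-Seq 1 its r was 0.996 and rho was 0.97 (exact permutation test, two-sided p = 0.000165 for rho, adjusted p = 0.00027). In all, 62 such correlations were computed.

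At the other end, Slc29a4 did not track Ttr in RNA-Seq 1 (r = 0.03, rho = -0.10, exact permutation p = 0.81 for rho, r = 0.26 without the 2 farthest libraries). In RNA-Seq 2 it did so less closely than the median member, with r = 0.65 and rho = 0.73 (permutation p = 0.00257, adjusted p = 0.00354), and r = 0.56 without the 2 farthest libraries. Car12 had r = 0.90 and 0.75 and Igf2 0.77 and 0.90 in RNA-Seq 1 and RNA-Seq 2.

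**Figure D3:**
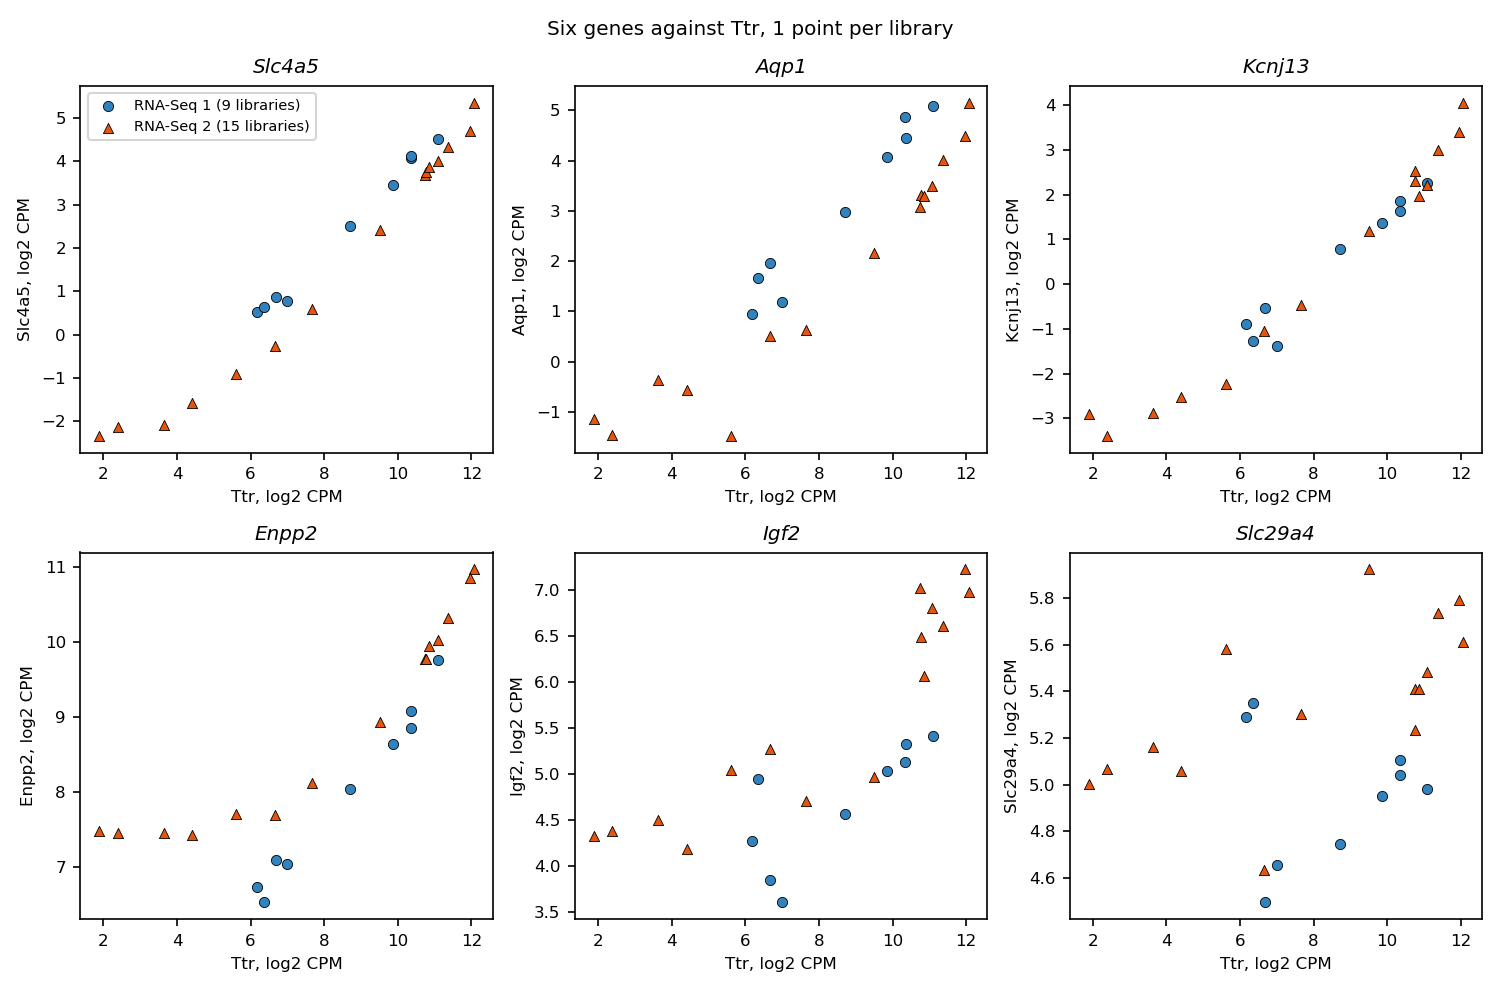
Log2 CPM of 6 genes (y axes) against log2 CPM of Ttr (x axes); circles are the 9 libraries of RNA-Seq 1 and triangles the 15 libraries of RNA-Seq 2. Slc4a5 rises with Ttr over its whole range, and Aqp1 and Kcnj13 do so above the lowest libraries of RNA-Seq 2. Among those, Aqp1 is at 0.388 CPM in WT homecage 3 and 0.292 CPM in CBP KIX/KIX CFC 2. Ttr is at 3.62 and 48.7 CPM in these 2 libraries, and Kcnj13 has 1 and 6 counts. Enpp2 and Igf2 level off at low Ttr, and Slc29a4 shows r = 0.03 in RNA-Seq 1.

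A straight line of each member's CPM on that of Ttr was drawn to describe the level at which a member would stand with Ttr at 0, a description chosen after the values were seen. In RNA-Seq 2 the line for Enpp2 met Ttr at 0 at 171 CPM, 35.1% of its median level, with a slope of 419 CPM per 1000 CPM of Ttr. For Cab39l it met 0 at 28.8 CPM, which was 90.4% of the median level of that gene, for Car12 at 54.5 CPM (96.3%) and for Slc29a4 at 36.9 CPM (87.1%). Of their highest levels these were 41.3%, 33.7% and 60.9%. Pearson's r of CPM with that of Ttr was 0.99 for Cab39l, but 0.47 for Car12 and 0.59 for Slc29a4. No error was computed for the levels with Ttr at 0. For Folr1 that level was 0.598 CPM (10.6% of its median), for Clic6 1.78 CPM (11.8%) and for Steap1 0.0669 CPM (5.07%). Kcnj13, Aqp1, Slc4a5, Tmem72 and Mfrp gave a value below 0. The defining members reached up to 46.7% for Kl, 45.6% for Slc13a4 and 42.3% for Calml4. Members better known from other cells ran from 9.95% for Cdh3 to the value of Car12, so the shares of the 2 kinds of member overlapped. In RNA-Seq 1 some defining members had higher shares, at 60.2% for Calml4, 58.1% for Kl and 53.5% for Slc13a4. Kcnj13, Aqp1, Slc4a5, Tmem72 and Mfrp were above 0 there, from 9.15% for Tmem72 to 31.0% for Mfrp. Others had lower shares there, such as Cldn2 at 4.28% against 16.3% in RNA-Seq 2.

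Markers of other tissue around the hippocampus moved much less than the members. The summed level of the 18 defining members ran from 43.5 to 4937 CPM in RNA-Seq 2 (113-fold) and from 139 to 2616 CPM in RNA-Seq 1 (18.9-fold). Ttr made up most of the highest sums, with 4291 CPM in WT CFC 2 and 2179 CPM in CBP KIX/KIX MWM 2. The sum of the other 14 members spanned 8.04-fold in RNA-Seq 2 and 4.78-fold in RNA-Seq 1. Over 10 genes each, ependymal markers spanned 2.11-fold in RNA-Seq 2 and 2.31-fold in RNA-Seq 1, those of meninges and fibroblasts from 79.8 to 279 CPM and 1.88-fold, of endothelium 1.31-fold and from 138 to 220.4 CPM, of thalamus 1.30-fold and 1.76-fold, of oligodendrocytes 1.39-fold and 1.72-fold, and of hippocampal principal neurons 1.21-fold and 1.32-fold. In none of these lists was a gene at 3 counts or fewer in every library.

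A list of 22 other choroid plexus genes served as the rest of the program. Its summed level spanned 1.96-fold in RNA-Seq 1 and 2.11-fold in RNA-Seq 2, about as little as the ependymal list. Abundant genes weigh most in this sum, so its span does not describe the single genes. In RNA-Seq 2 the sum ran from 373 to 786 CPM and Slc4a10 alone from 193 to 313 CPM. The sum tracked Ttr with r = 0.97 and rho = 0.90 in RNA-Seq 1 (exact permutation p = 6.34e-05 for r, adjusted p = 0.00084, p = 0.00203 for rho, r = 0.97 without the 2 farthest libraries). In RNA-Seq 2 r was 0.85 and rho 0.87 (permutation p = 0.00012 for r, adjusted p = 0.00084, p = 5e-05 for rho, r = 0.90 without the 2 farthest). Of 14 such relations, the other 12 had adjusted p of 0.1 or more for r. Before adjustment, the ependymal list in RNA-Seq 2 had rho = 0.65 (permutation p = 0.0104, r = 0.50, and 0.66 without the 2 farthest libraries), the neuronal list in RNA-Seq 1 rho = -0.82 (exact permutation p = 0.0108, r = -0.64), and the meningeal and endothelial lists in RNA-Seq 2 r = 0.59 and 0.52 (permutation p = 0.0215 and 0.0493, adjusted p = 0.1 and 0.166). Their part in the members' levels was not tested. The genes of the choroid plexus list differed: r with Ttr was 0.17 and 0.60 for Stra6 (the receptor that takes up vitamin A) and 0.72 and 0.41 for Slc4a10 (a sodium bicarbonate transporter that neurons also make) in RNA-Seq 1 and RNA-Seq 2. By contrast, 1500015O10Rik (augurin, a secreted peptide of the choroid plexus) ran from 1.57 to 38.2 CPM in RNA-Seq 2, and Abca4 (a retinoid flippase) from 2.02 to 33.0 CPM. Wdr86 ran from 0.188 to 12.9 CPM there, with r = 0.95 in RNA-Seq 1 and 0.97 in RNA-Seq 2. The more abundant Slc12a2 ran only from 59.1 to 98.5 CPM in RNA-Seq 2, with r = 0.77 and 0.72.

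Learning in WT mice was tested over 13 libraries with the design of the study, which pools both experiments with a batch term and 3 factors of unwanted variation estimated from residuals (RUVr). Folr1 and Aqp1 were higher after learning and no member was lower. They were 2 of 32 members, beside 0.404% of 22038 genes called higher, 0.635% called lower and 1.04% called in either direction. The median log2 change of the members was 1.00 against -0.03 over all genes, and 31 of the 32 had a positive sign, Slc29a4 being the other at -0.09. At an unadjusted p under 0.05 there were 27 members, beside 3813 of the 22038 genes.

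Folr1 (chr7:101858331-101870788, minus strand, GRCm38, GENCODE M21) was at 1.86, 0.781 and 14.3 CPM in WT homecage and 1.59, 5.04 and 16.1 CPM in WT MWM in RNA-Seq 1. In RNA-Seq 2 it was at 1.24, 12.2 and 1.16 CPM in WT homecage and 0.875, 31.8, 14.8 and 12.5 CPM in WT CFC. The groups overlapped in both experiments, although in RNA-Seq 2 the trained libraries lay outside the homecage range, 1 below and 3 above it. Its log2 fold change was 1.50 (SE 0.32, adjusted p = 0.0449 by edgeR's quasi-likelihood test with Benjamini-Hochberg adjustment).

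Aqp1 (chr6:55336432-55348555, plus strand) was at 1.88, 3.13 and 21.8 CPM in WT homecage and 3.84, 7.83 and 29.3 CPM in WT MWM in RNA-Seq 1. In RNA-Seq 2 it was at 0.296, 8.40 and 0.388 CPM in WT homecage and 0.706, 35.4, 9.89 and 9.70 CPM in WT CFC. The groups overlapped in both experiments, with a homecage library above the lowest trained library each time. Its log2 fold change was 1.77 (SE 0.39, adjusted p = 0.0482). Ttr had a larger change with a larger error, 2.27 (SE 0.86, adjusted p = 0.195).

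Neither call held without the factors. With the batch term alone, 0 members were called by edgeR and 0 by DESeq2, 0 reached an unadjusted p under 0.05, and Folr1 had 0.97 (SE 0.77, adjusted p = 0.794), Aqp1 1.30 (SE 0.81, adjusted p = 0.764) and Ttr 1.08 (SE 1.24, adjusted p = 0.834), with 0.0408% of all genes called. With GC-content normalization, a step of the study, 0 members were called, with Folr1 at 1.596 and Aqp1 at 1.897 (adjusted p = 0.192 and 0.202). With the replicate number as a block, 12 members were called together with the factors, Folr1 (1.17, adjusted p = 0.0433) and Aqp1 (1.56, adjusted p = 0.00193) among them, and 0 without the factors. Over all alternatives that kept every library, the count of members ran from 0 to 20.

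The second of the 3 factors tracked Ttr across the 13 libraries. On deviations from group means its Pearson's r with Ttr was 0.68 (permutation p = 0.0105, adjusted p = 0.0366 over the 7 factors of both models) and its rho 0.79 (p = 0.00208), with r = 0.75 without the 2 farthest libraries. The 3 factors together took 64.3% of the squared deviations of Ttr within groups, a share that was not computed for other genes. The factors were estimated from residuals of these same libraries, with Ttr and the other members included. Some tracking of Ttr is therefore built in, and the permutation p does not allow for it. When log2 CPM of Ttr was put into the model in place of the factors, an alternative added after the data were seen, 0 members were called, the members' median was -0.03, Folr1 stood at -0.03 and Aqp1 at 0.34. Ttr is itself a member that the others track, so this setting takes out their shared change whatever its source.

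The count of members also rested on single libraries. It was 26 without WT CFC 1, the trained library with Ttr at 12.4 CPM, 24 without WT homecage 3 of RNA-Seq 1 and 18 without WT homecage 2 of RNA-Seq 2, the homecage libraries with Ttr at 1310.5 and 1722 CPM. It was 4 without WT MWM 1, 1 without WT homecage 2 of RNA-Seq 1, and 0 without any of the other 8. Ttr itself was called without WT CFC 1 (2.74, adjusted p = 0.0471) and without WT homecage 2 of RNA-Seq 2 (3.90, adjusted p = 0.0411), over a range of 0.68 to 3.90 when each library was left out in turn.

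**Figure D4:**
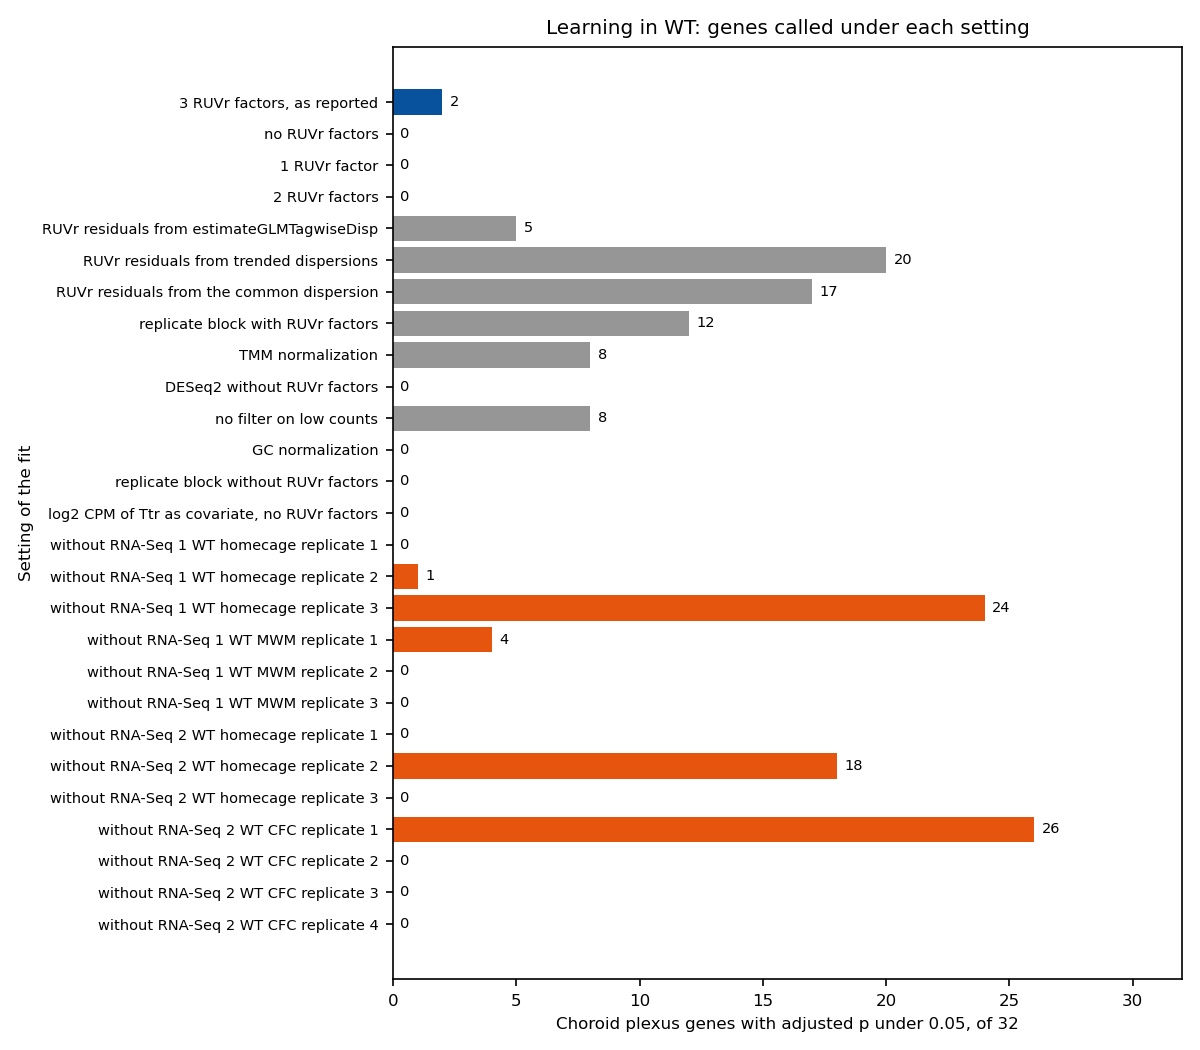
Number of the 32 choroid plexus genes with an adjusted p under 0.05 for learning in WT (x axis) under each setting of the model (y axis); blue is the design of the study, grey are other settings with all 13 libraries, and orange are fits without 1 library. The count runs from 0 to 26, with the largest value without WT CFC 1.

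Within each experiment, without factors, no member was called. WT MWM against homecage gave a median log2 change of 0.11 over the members and 0 calls by edgeR (0.0135% of 22276 genes called, 0.00898% higher and 0.00449% lower) and by DESeq2, with 1 member, Slc29a4, at an unadjusted p under 0.05, beside 2418 of all genes. Slc29a4 was at 39.1, 40.7 and 34.3 CPM in WT homecage and 22.5, 26.7 and 32.9 CPM in WT MWM, so the groups did not overlap, as for 13% of all 18036 genes. Its log2 change was -0.47 (SE 0.13, adjusted p = 0.3 by edgeR), and without WT homecage 3 it was called lower.

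WT CFC against homecage in RNA-Seq 2 gave a median log2 change of 1.27 over the members, all 32 positive, and 0 calls by edgeR (0% of 18851 genes called) and DESeq2, with 0 members at an unadjusted p under 0.05. Aqp1 had 2.09 (SE 1.39), Folr1 1.54 (SE 1.26) and Ttr 1.77 (SE 1.96, adjusted p = 1 by edgeR). Ttr ranged from 1.05 without WT CFC 2 to 8.76 without WT homecage 2. No member separated the groups, beside 5.31% of all genes.

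The genotype after learning was tested over 14 libraries with 4 RUVr factors and a batch term. No member was called by edgeR beside 2.84% of 21489 genes (1.18% higher and 1.66% lower), and 0 reached an unadjusted p under 0.05, beside 3911 of all genes. The median log2 change of the members was -0.37 against -0.01 over all genes, and 2 of 32 were positive (Cab39l and Slc29a4). Ttr had -0.58 (SE 0.65, adjusted p = 0.708), Kcnj13 -0.81 (SE 0.58), Slc4a5 -0.68 (SE 0.55) and Otx2 -0.15 (SE 0.35). Without factors the median was -0.07, 10 of 32 were positive, Ttr was at 0.16 (SE 1.01), and edgeR (0.0186% of genes called, 0.00465% higher and 0.014% lower) and DESeq2 called 0 members.

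**Figure D5:**
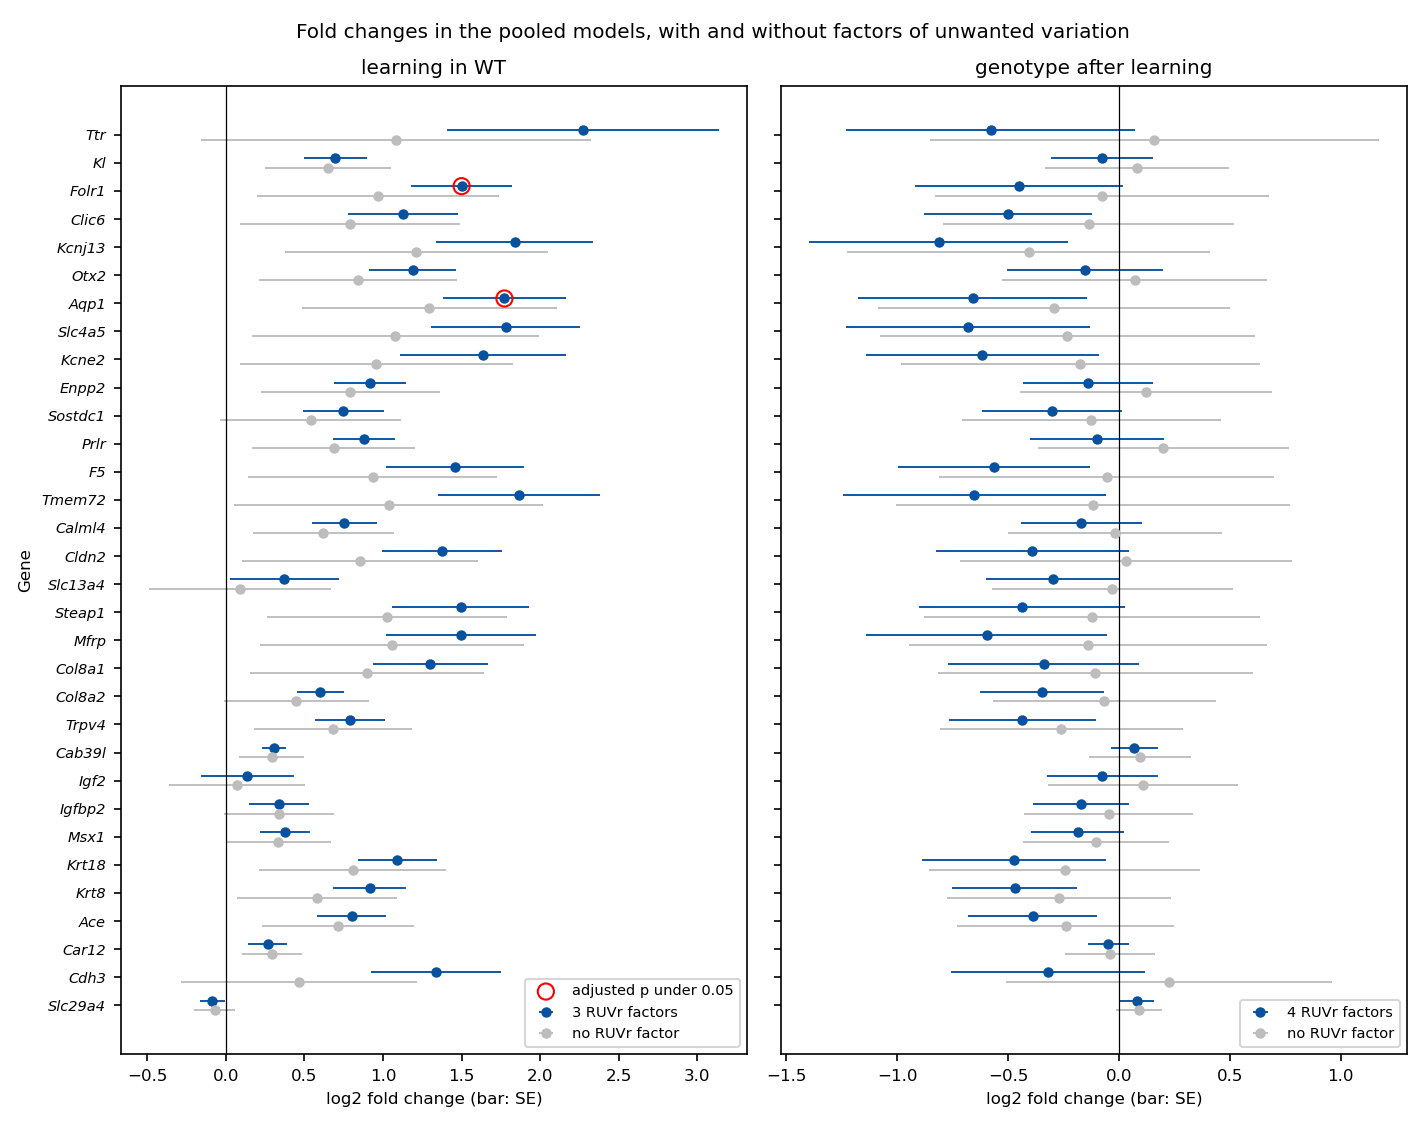
Log2 fold change (points) with its standard error (bars) of the 32 choroid plexus genes for learning in WT (left) and for genotype after learning (right), with the RUVr factors of the study (blue) and with none (grey); red rings mark an adjusted p under 0.05. The rings are on Folr1 and Aqp1 for learning with factors, and the grey bars are wider than the blue ones for each gene.

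The first of these 4 factors tracked Ttr as well. Its r with the deviations of Ttr from group means was 0.77 over 14 libraries (permutation p = 0.00123, adjusted p = 0.00861) and its rho 0.77 (p = 0.0017), with r = 0.77 without the 2 farthest libraries. The 4 factors together took 76.0% of the squared deviations of Ttr within groups, again without a share for other genes. These factors too were estimated with Ttr and the other members included, so the same limit holds for this r, its p and the share.

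The 2 experiments differed in sign for the genotype. After MWM the members' median was 0.45 and all 32 were positive, with Ttr at 0.83 (SE 1.10, adjusted p = 0.862) and 0 called by edgeR (0% of 22276 genes) or DESeq2, and 0 at an unadjusted p under 0.05. After CFC the median was -0.48 with 2 of 32 positive and Ttr at -0.34 (SE 1.72, adjusted p = 1), again with 0 called by edgeR (0.0106% of 18851 genes) or DESeq2 and 0 at an unadjusted p under 0.05. Whether the 2 genotype differences differ from each other was not tested. Without CBP KIX/KIX MWM 2, Ttr was at -0.20 after MWM, and without WT CFC 2 it was 0.37 after CFC. No member separated the genotypes, beside 18.5% of all genes after MWM and 2.51% after CFC.

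At baseline, CBP KIX/KIX against WT homecage mice of RNA-Seq 2 gave a median of 0.41 over the members, with 25 of 32 positive. No member was called by edgeR (0.0107% of 18682 genes) or DESeq2. Car12 alone reached an unadjusted p under 0.05, as did 1144 of all genes. It was at 40.3, 56.6 and 43.7 CPM in WT homecage and at 44.7, 55.1, 114 and 162 CPM in CBP KIX/KIX homecage, so the groups overlapped, and its log2 difference was 0.98 (SE 0.41, adjusted p = 0.798 by edgeR). Ttr had 0.67 (SE 1.74, adjusted p = 0.967), from -0.76 without CBP KIX/KIX homecage 3 to 7.66 without WT homecage 2. No member separated the homecage genotypes, beside 6.85% of all genes.

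CFC against homecage within CBP KIX/KIX mice gave a median of 0.52, with 31 of 32 positive and Car12 at -0.64 (SE 0.36). No member was called by edgeR (0% of 18851 genes) or DESeq2, 0 had an unadjusted p under 0.05, and Ttr had 0.76 (SE 1.73, adjusted p = 0.903). No member separated these groups, beside 4.94% of all genes. The difference between the training effects of the 2 genotypes had a median of -0.80 over the members and 0 calls by edgeR (0% of 18851 genes) and DESeq2. Of the members, Car12 was at an unadjusted p under 0.05 there, as were 903 of all genes, at -1.17 (SE 0.54, adjusted p = 0.95 by edgeR), and Ttr had -1.01 (SE 2.55, adjusted p = 0.984). These comparisons share libraries and are not independent of each other.

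Of the 22 other choroid plexus genes, 1 was called higher for learning in WT, Oca2 (a melanosomal transporter, 0.24 to 6.11 CPM in RNA-Seq 2), with a list median of 0.50, and 0 were called in the other comparisons, homecage included. The amount of choroid plexus tissue in each dissection was not recorded in the labels. Its part in the differences between trained and homecage mice was not tested, and with the members moving together across libraries of the same group it cannot be told apart from a change of their transcription.

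Exons of 10 of the 32 members overlap another gene in the annotation. The longest overlaps on the same strand were Igf2 with Gm49394 (3596 bases) and Mfrp with C1qtnf5 (1589 bases), and on the opposite strand Kcnj13 with Gigyf2 (623 bases). The strand setting of the counting was not given in the sources used here, so the levels of these members may hold reads of their neighbours.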

How the data were processed

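Dorsal hippocampus RNA of 24 libraries was sequenced in 2 experiments. The authors aligned reads with STAR in the bcbio pipeline and counted them per gene with featureCounts (1.4.4 in the submitters' processing notes, with SAMtools 1.6 and builds mm10 and GRCm38), and the deposited values are raw counts. The annotation release and the strand setting were not given in the sources used here. Symbols came from GENCODE M21, in which 51633 of 51826 identifiers were found.

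Groups came from the labels. As libraries are not tied to animals in the labels, p-values measure the spread between libraries. Genes were filtered with filterByExpr, scaled by the upper quartile and tested with edgeR 4.0.16 (R 4.3.3) by the quasi-likelihood test, with Benjamini-Hochberg adjustment over all genes and a threshold of 0.05. The designs followed the study: experiment as batch with 4 RUVr factors for genotype after learning and 3 for learning in WT, and 0 factors for genotype in homecage. RUVr was written anew from deviance residuals, and the GC-content normalization of the study was run as an alternative. Each experiment was also fitted alone, without factors. DESeq2 1.42.0 without factors, other scalings and filters, a replicate block and leaving out each library were alternatives. Same-numbered trained and homecage libraries of the same genotype deviated together from their group means in every pair. Correlations were 0.11 to 0.18 for WT MWM, 0.23 to 0.50 for WT CFC and 0.18 to 0.37 for CBP KIX/KIX CFC. Replicate numbers were therefore taken as pairs in those comparisons, from the data and not the labels, after the fits had been run. The pairs enter only the replicate block, and all other fits are unpaired. Different-numbered libraries, over all pairs of groups, ran from -0.14 to 0.26 in RNA-Seq 1 and from -0.50 to 0.40 in RNA-Seq 2. In RNA-Seq 1 they thus reached above the WT MWM pairs. In RNA-Seq 2 the libraries numbered 3 or 4 were also the shallower ones. A shared number cannot be told apart from shared depth there. CBP KIX/KIX CFC 4 correlated more with homecage 3 (0.25) than with homecage 4 (0.18), so the pairs are uncertain. Models were tested on simulated data. Log2 CPM used a prior count of 2, and correlations an exact permutation test at n = 9 and 100000 permutations otherwise. Totals of 15385800 to 65709300 counts per library allow a level of at most 0.195 CPM where a gene has 0 counts in the shallowest library (3 counts), for counting error only.

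All 32 members are named, with full statistics for called members and Ttr, and beside them the 10 other genes whose pattern was most like that of Ttr, of which 1 is not reported here. The members and lists were chosen with earlier results of these data known.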

Additional observations from a re-analysis of the deposited data

Results flagged for a closer look

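In groups of 4 libraries, a library was singled out when its gap to the nearest other library, divided by the range of the group on the log2 scale, exceeded Dixon's critical value at the 95% level. Over 32 members and 3 such groups, 96 sets were examined and 2 libraries were singled out (2.08%), where chance alone singles out about 1 in 20. Ttr in WT CFC 1 stood at 12.4 CPM against 1739 to 4291 CPM in the other 3 libraries of the group, a ratio of 0.845. Cab39l in CBP KIX/KIX homecage 3 stood at 55.6 CPM against 29.6 to 31.9 CPM in the others, a ratio of 0.882, and Ttr was also highest of the group in that library, at 2657 CPM.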

How the results depend on the processing

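The number of members called for learning in WT, 2 with 3 RUVr factors, was 0 with no factors, with 1 or 2 factors, with DESeq2, with GC-content normalization, with the replicate block without factors and with log2 CPM of Ttr as covariate. It was 8 with TMM scaling, 8 with no filter on low counts and 12 with the replicate block together with the factors. With residuals for RUVr from other dispersions, settings added after the data were seen, it was 5 (tagwise, by the older GLM estimator), 20 (trended) and 17 (common), and with each library left out 0 to 26. Fold changes of Folr1 and Aqp1 were positive in all settings run except Folr1 at -0.029 with Ttr as covariate. Genotype after learning kept 0 members in all settings except the replicate block with factors, which called 8 lower (Kcnj13, Aqp1, Slc4a5, F5, Tmem72, Mfrp, Trpv4 and Ace). WT MWM against homecage ran from 0 to 1 with a library left out. The causes were not tested. Between the genotypes, same-numbered libraries did not all deviate together (correlations of -0.16 to -0.0068 after MWM, -0.12 to 0.52 after CFC and 0.062 to 0.32 in homecage), so the numbers were not taken as pairs there. The replicate block changed no other count of members. It moved Ttr to 4.67 for genotype in homecage, 2.06 for genotype after MWM, 0.69 for WT MWM against homecage and -2.56 for the difference between training effects. Ttr changed sign for genotype after learning with no factors (0.16), DESeq2 (0.14) and the replicate block without factors (0.26), and with the replicate block for genotype after CFC (0.027) and CBP KIX/KIX CFC against homecage (-0.56). With each library left out, Ttr ran from -1.15 to 0.25 for genotype after learning, -0.76 to 7.66 for genotype in homecage, -0.90 to 2.98 for WT MWM against homecage, -0.20 to 2.04 for genotype after MWM, -1.41 to 0.37 for genotype after CFC, -0.31 to 2.18 for CBP KIX/KIX CFC against homecage and -8.00 to 0.41 for the difference between training effects. Depth limits Kcnj13, Slc4a5, Tmem72, Mfrp, Steap1 and Cdh3, which had 3 counts or fewer in 1 to 5 libraries of RNA-Seq 2.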

Other observations

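Across all 18036 genes tested in every model, 51 had a Pearson's r with Ttr above 0.9 in both experiments on the log2 CPM scale, and 21 of them were members. Among the 10 genes outside the 32 with the highest lower value of the 2 correlations were Prr32, Wdr86, 1500015O10Rik, Scara5, Abca4, Rbm47, Pla2g5, Ooep and Ggh. Of these 9, 4 (Wdr86, 1500015O10Rik, Abca4 and Pla2g5) were on the list of 22 other choroid plexus genes. Prr32, an uncharacterised proline-rich protein gene on the X chromosome, had r = 0.96 in both experiments, from 0.226 to 1.93 CPM in RNA-Seq 1 and up to 8.98 CPM in RNA-Seq 2. Scara5, a ferritin receptor, had r = 0.95 in both and ran from 0.135 to 4.02 CPM in RNA-Seq 2. Ggh, which trims folate polyglutamates, ran from 11.5 to 19.9 CPM with r = 0.92 in RNA-Seq 2. These correlations were ranked over all genes, so their size is a description.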
